A study of Danio rerio with 18 samples.

Results

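Genes of the insulin-like growth factor (IGF) axis, 6 in all, were followed across 15 libraries of zebrafish heart ventricle. They were the ligand genes IGF1 (ENSDARG00000094132), igf2a (ENSDARG00000018643) and igf2b (ENSDARG00000033307), the receptor gene IGF1R (ENSDARG00000034434), and the binding protein genes IGFBP3 (ENSDARG00000099144) and igfbp1b (ENSDARG00000038666). These 6 genes, of 32520 in the count tables, were found by symbol or gene ID. Symbols are spelled as the gene name table gives them, in which some zebrafish genes carry a capitalised family symbol. The gene igfbp1b was chosen by its measured fall in GFP-HRAS hearts against RFP hearts under DMSO, and which values brought in the other 5 was not recorded. For that reason the values of all 6 in that comparison are given as a description, without a p-value. Every other comparison that includes either of those groups reuses part of the same values. For the 6 genes, p-values from such comparisons are therefore descriptions and not tests independent of the choice. Since the values that brought in the other 5 are not known, their p-values in the remaining comparisons are descriptions as well.

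The study set hearts in which an oncogene was switched on beside hearts regenerating after cryoinjury. All fish carried cmcl2:Gal4-ERT2, a Gal4 driver for heart muscle cells that 4-hydroxytamoxifen (4-OHT) activates. Both RFP groups also carried UAS:RFP, a red fluorescent control, and both GFP-HRAS groups carried UAS:GFP-HRAS, the oncogene HRAS joined to green fluorescent protein. These 4 groups had uninjured ventricles and received 4 overnight pulses of 2.5 µM 4-OHT across 16 days, together with either 0.05% DMSO, the vehicle, or 0.5 µM rapamycin, an inhibitor of the kinase TOR. The group of 7 days post cryoinjury (7 dpci) carried the driver alone and received no treatment. It therefore differed from the others in its UAS line, 4-OHT and vehicle as well as in injury, and was counted in another table, so these causes cannot be told apart. Fish were adults, each group had 3 libraries, and the labels do not say whether libraries came from separate or pooled animals. P-values then measure the spread between these libraries, which may be technical. The driver limits the transgene to heart muscle cells, whereas the RNA came from all cells of the ventricle.

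IGF ligands bind IGF1R, a receptor tyrosine kinase that signals through insulin receptor substrates to PI3K, AKT and TOR and through the RAS and MAPK cascade. Secreted IGF binding proteins hold the ligands and either limit or prolong their access to the receptor. In vertebrates the IGFBP1 genes are known to be induced by fasting and low oxygen and repressed by insulin through FOXO factors, and in the zebrafish heart IGF signalling, with igf2b among the ligands, is known for a role in heart muscle cell proliferation after injury.

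Library totals ran from 15861618 to 20003711 counts. The first principal component, with 64.7% of the variance of the 1000 most variable genes, put GFP-HRAS rapamycin replicate 3 at -11.9, apart from the other two replicates of that group at 44.5 and 32.8 and toward the RFP libraries at -60.6 to -48.7. Summed CPM (the count scaled to library size by TMM factors) of 8 cardiomyocyte markers were 22600 to 26000 in GFP-HRAS DMSO and 37800 to 54800 in the other groups, with no marker at 0. The sum of 5 leukocyte markers lay between 2830 and 4250 CPM with GFP-HRAS and DMSO, between 139 and 387 CPM with GFP-HRAS and rapamycin, between 974 and 1040 CPM at 7 dpci, and at no more than 210 CPM in either RFP group. Scaling by library totals in place of TMM moved the median log2 fold change of all genes by 0.46 in GFP-HRAS against RFP under DMSO, by -0.45 for rapamycin in GFP-HRAS and by -0.35 in 7 dpci against GFP-HRAS DMSO. In bulk tissue, fewer cells of a type and less RNA per cell cannot be told apart.

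**Figure D1:**
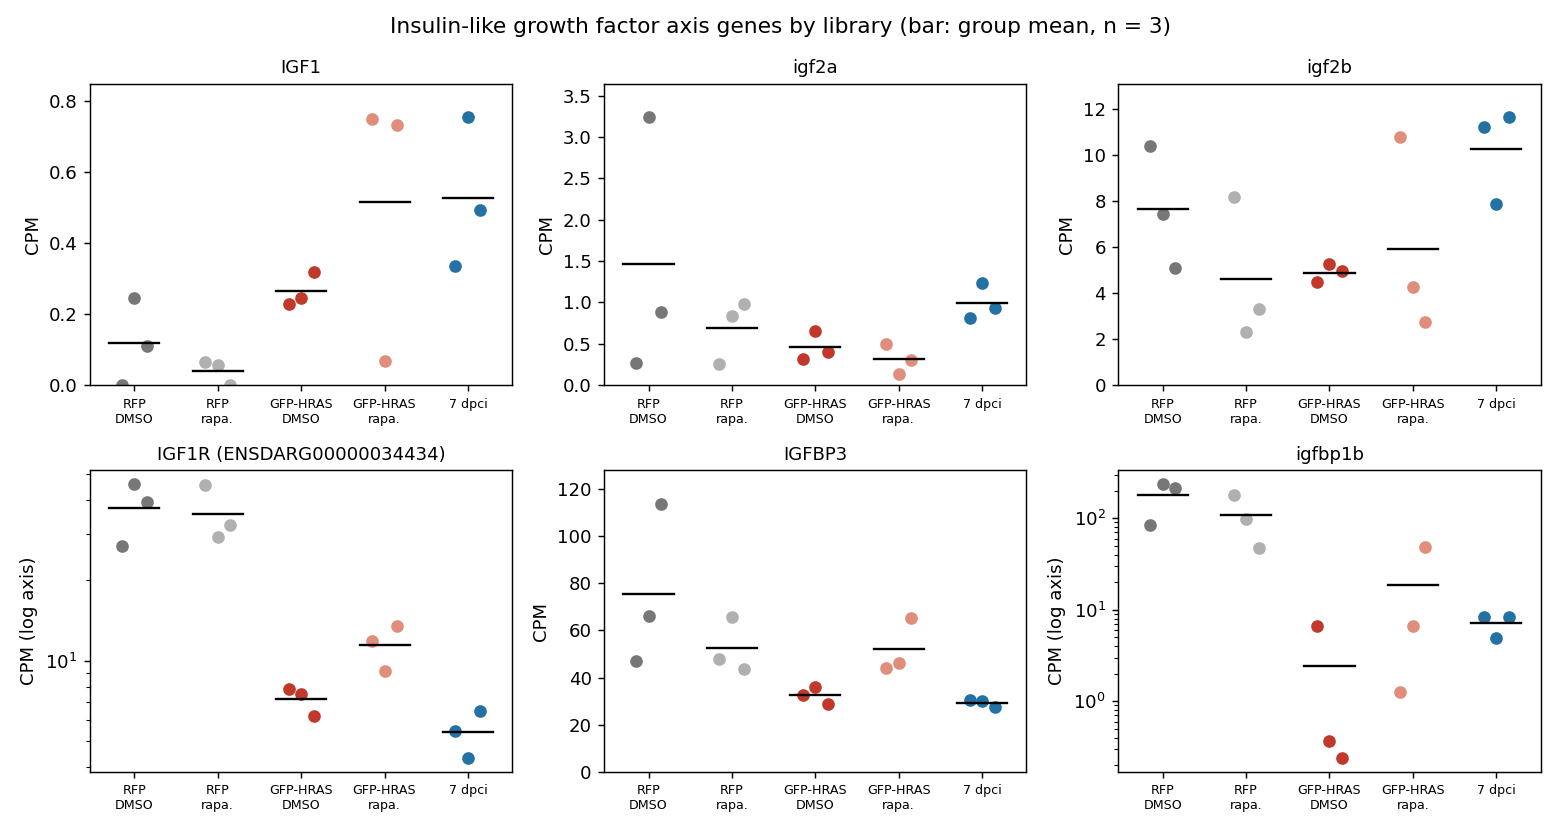
CPM of the 6 genes in each library (points), with the group mean as a bar and 3 libraries a group; the IGF1R and igfbp1b axes are logarithmic. IGF1R lay at 27.0 to 46.0 CPM in the RFP groups and at 4.31 to 13.4 CPM elsewhere, whereas igf2b overlapped between neighbouring groups throughout.

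The ligand genes were called in none of the comparisons tested over all groups with TMM scaling, and the alternative settings that did call one are given with its values. IGF1 and igf2a had low counts. IGF1, the circulating and local ligand best known from the growth hormone axis, had 0, 4 and 2 counts in the 3 RFP DMSO libraries and 1, 1 and 0 in RFP rapamycin. It had 5, 6 and 8 counts in GFP-HRAS DMSO, 15, 1 and 12 in GFP-HRAS rapamycin and 7, 14 and 9 at 7 dpci. In CPM all 7 dpci libraries (0.336 to 0.754) stood above all RFP DMSO libraries (0 to 0.245), which overlapped GFP-HRAS DMSO (0.228 to 0.319). GFP-HRAS rapamycin replicate 2, at 0.0667 CPM, was barely above the RFP rapamycin libraries (0 to 0.0639). At these counts IGF1 did not pass the expression filter among the 12 transgenic libraries. Under rapamycin its summed counts were 28 with GFP-HRAS and 2 with RFP, a ratio of 12.8 after scaling (95% counting interval 3.22 to 110). That interval covers counting error only, and all but 1 of the 28 counts came from replicates 1 and 3.

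In the fit that included 7 dpci, IGF1 was 2.07 ± 0.85 (SE) higher on the log2 scale at 7 dpci than in RFP DMSO, with an adjusted p of 0.0725 by edgeR. It differed from GFP-HRAS DMSO by 0.97 ± 0.74 (adjusted p = 0.342), and from GFP-HRAS rapamycin by 0.00, with a sign that turned with the scaling. Ordered by mean CPM, the groups ran from RFP rapamycin (0.0399) through RFP DMSO (0.118), GFP-HRAS DMSO (0.264) and GFP-HRAS rapamycin (0.516) to 7 dpci (0.527), and neighbours in that order overlapped, each with the next.

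The ligand gene igf2a, a zebrafish copy of the fetal growth factor gene IGF2, reached 4, 53 and 16 counts in RFP DMSO and 4, 15 and 13 in RFP rapamycin. It had 7, 16 and 10 counts in GFP-HRAS DMSO, 10, 2 and 5 in GFP-HRAS rapamycin and 17, 23 and 17 at 7 dpci. A single library, RFP DMSO replicate 2 at 3.24 CPM, lay far above the other 14, which ran from 0.133 to 1.24 CPM. Its fold change in GFP-HRAS against RFP under DMSO was -1.65 ± 0.80 on the log2 scale with that library and -0.34 without it, and it was -2.15 without RFP DMSO replicate 1. All 7 dpci libraries (0.815 to 1.24 CPM) lay above all GFP-HRAS libraries (0.133 to 0.655 CPM). Neither difference passed the test: 7 dpci was 1.1 ± 0.74 higher than GFP-HRAS DMSO (adjusted p = 0.276) and 1.61 ± 0.78 higher than GFP-HRAS rapamycin (adjusted p = 0.166).

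The other copy, igf2b, read 10.4, 7.46 and 5.07 CPM in RFP DMSO and 8.18, 2.29 and 3.31 in RFP rapamycin. The GFP-HRAS DMSO libraries gave 4.48, 5.24 and 4.94 CPM, and the GFP-HRAS rapamycin libraries 10.8, 4.27 and 2.75. At 7 dpci the libraries gave 11.2, 7.87 and 11.7 CPM. The 7 dpci libraries were all above the GFP-HRAS DMSO libraries, which were the least scattered, and overlapped both RFP DMSO and GFP-HRAS rapamycin. The difference between 7 dpci and GFP-HRAS DMSO was 1.07 ± 0.50 on the log2 scale (adjusted p = 0.122). Across 12 alternative settings that p ran from 0.00657, in a fit of those 2 groups alone, to 0.29. Against GFP-HRAS rapamycin the difference was 0.78 ± 0.49 (adjusted p = 0.286), and 1.56 (0.0466) without replicate 1 of that group, with adjusted p from 0.0466 to 0.558 over 12 alternatives. In GFP-HRAS against RFP under DMSO igf2b differed by -0.64 ± 0.53, with overlapping libraries.

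The receptor gene was lower in every GFP-HRAS and 7 dpci library than in any RFP library. IGF1R stood at 27.0, 46.0 and 39.5 CPM in RFP DMSO and 45.7, 29.0 and 32.2 in RFP rapamycin. It read 7.81, 7.50 and 6.22 CPM in GFP-HRAS DMSO, 11.8, 9.14 and 13.4 in GFP-HRAS rapamycin and 5.47, 4.31 and 6.46 at 7 dpci. Ordered from the lowest mean, 7 dpci (5.41 ± 1.07 SD) overlapped GFP-HRAS DMSO (7.18 ± 0.84), which lay entirely below GFP-HRAS rapamycin (11.5 ± 2.17). Both RFP groups, at 35.6 ± 8.83 with rapamycin and 37.5 ± 9.64 with DMSO, overlapped each other and lay above all others (n = 3 each).

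Under DMSO the IGF1R difference between GFP-HRAS and RFP was -2.38 ± 0.26 on the log2 scale, given as a description. The same transgenes under rapamycin were compared in other libraries, although the DMSO libraries entered the estimate of spread. There IGF1R was lower by a log2 difference of -1.63 ± 0.25, with an edgeR adjusted p of 0.00396. Over 12 alternatives this value stayed between -1.76 and -1.41, and the adjusted p between 2e-07 and 0.0259. Whether the rapamycin values entered the choice of IGF1R was not recorded, so these p-values are descriptions too. Of the 5 genes that could be tested there, IGF1R alone was called (1 of 5), where 18.1% of all 16044 genes were called and 7.71% were called lower. Endothelial and endocardial markers summed to 820 to 987 CPM in GFP-HRAS rapamycin and to 1280 to 1530 CPM in RFP rapamycin, with 4 of 6 called lower and none at 0. Under DMSO 6 of 6 were called lower with GFP-HRAS, beside 22.6% of all genes. At 7 dpci against RFP DMSO 4 of 6 were called lower, beside 17.7% of all genes. Their part in the IGF1R differences was not tested. At 7 dpci IGF1R was lower than in RFP DMSO by -2.79 ± 0.26 (adjusted p = 5.99e-05) and lower than in GFP-HRAS rapamycin by -1.08 ± 0.25 (adjusted p = 0.0107). The second of these calls was lost without 7 dpci replicate 2 (adjusted p = 0.0518). Against GFP-HRAS DMSO the difference was -0.41 (adjusted p = 0.23), and it reached -0.75 (adjusted p = 0.0337) when libraries were scaled by their totals, within a range of 0.0337 to 0.52 over alternatives.

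The binding protein gene igfbp1b varied widely between groups and within them. It had 1299, 3861 and 3879 counts in RFP DMSO (84.8, 236 and 214 CPM) and 2825, 1740 and 625 in RFP rapamycin (181, 97.2 and 47.1 CPM). In GFP-HRAS DMSO it had 147, 9 and 6 counts (6.71, 0.369 and 0.239 CPM), and in GFP-HRAS rapamycin 25, 99 and 791 counts (1.25, 6.61 and 48.4 CPM). At 7 dpci it had 174, 92 and 151 counts (8.34, 4.96 and 8.26 CPM). All GFP-HRAS DMSO and 7 dpci libraries thus lay below every RFP library, while replicate 3 of GFP-HRAS rapamycin overlapped the lowest RFP rapamycin library. The spread within both GFP-HRAS groups was wide: replicate 1 was 6.71 CPM where the other GFP-HRAS DMSO libraries were under 1, and the GFP-HRAS rapamycin libraries ran upward from 1.25 CPM.

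The mean of igfbp1b was 178 ± 81.7 CPM in RFP DMSO and 2.44 ± 3.70 in GFP-HRAS DMSO (SD, n = 3), a log2 difference of -6.20 ± 1.49 that became -9.17 without GFP-HRAS DMSO replicate 1. Under rapamycin, in other libraries, GFP-HRAS differed from RFP by -2.53 ± 1.24 with an edgeR adjusted p of 0.168. The spread for that test was estimated over all 12 transgenic libraries. Without GFP-HRAS rapamycin replicate 3, the library that stood apart on the first principal component, the difference was -4.81 (adjusted p = 0.0237). The adjusted p over 12 alternatives ranged from 0.0237 to 0.371. At 7 dpci igfbp1b was lower than in RFP DMSO, a group used in its choice, by -4.63 ± 1.26 (edgeR adjusted p = 0.0121). That call was lost without 7 dpci replicate 2 (0.0522). Against GFP-HRAS DMSO, the other group used in its choice, igfbp1b was 1.58 ± 1.18 higher at 7 dpci (adjusted p = 0.331). Without GFP-HRAS DMSO replicate 1 it was 4.58 higher (0.0313), with adjusted p from 0.0313 to 0.581 over 12 alternatives. Against GFP-HRAS rapamycin it differed by -1.38 ± 1.12 (adjusted p = 0.412). In order of mean CPM, GFP-HRAS DMSO was followed by 7 dpci (7.19), GFP-HRAS rapamycin (18.7), RFP rapamycin (108) and RFP DMSO, and each group overlapped the next.

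Since igfbp1b is known as a gene of liver, the hepatocyte markers were read beside it. Of 9 such markers, 4 (apoa2, FGB, serpina1 and ambp) were at 0 in all RFP DMSO libraries, where igfbp1b was highest. The summed level was 24.2 to 132 CPM in RFP DMSO and 138 to 371 CPM in GFP-HRAS DMSO, where igfbp1b was lowest. Most of the former (13.7 to 126 CPM) and nearly all of the latter was tfa, the transferrin gene. The sum was 31.1 to 67.9 CPM in RFP rapamycin, 36 to 144 CPM in GFP-HRAS rapamycin and 230 to 655 CPM at 7 dpci. Lower together with igfbp1b were ahsg1, a secreted plasma protein gene, at 4.18 to 9.38 CPM in RFP DMSO and 0.0797 to 0.246 CPM in GFP-HRAS DMSO, and fabp10a, a fatty acid binding protein gene of hepatocytes, at 11, 5 and 17 counts against 0, 0 and 1. With rapamycin ahsg1 read 2.41 to 5.31 CPM in RFP and 0.249 to 0.306 CPM in GFP-HRAS. At 7 dpci it read 0.216 to 0.985 CPM. Counts of fabp10a were 4, 14 and 4 in RFP rapamycin, 1, 4 and 0 in GFP-HRAS rapamycin and 5, 3 and 1 at 7 dpci. In GFP-HRAS against RFP under DMSO, 2 of 3 hepatocyte markers tested were called lower and 0 higher, beside 22.6% of all genes called lower. The part of hepatocytes in the igfbp1b differences was not tested.

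IGFBP3, the main carrier of circulating IGF in mammals, read 46.9, 66.1 and 114 CPM in RFP DMSO and 47.8, 65.9 and 43.5 in RFP rapamycin. It read 32.5, 36.0 and 28.8 CPM in GFP-HRAS DMSO, 44.2, 46.2 and 65.3 in GFP-HRAS rapamycin and 30.4, 30.0 and 27.6 at 7 dpci. The 7 dpci and GFP-HRAS DMSO libraries overlapped each other and lay below all libraries of the other 3 groups, which in turn overlapped among themselves. The description for GFP-HRAS against RFP under DMSO was -1.22 ± 0.30 on the log2 scale, and -0.77 with library totals as the scaling. Under rapamycin the same comparison gave -0.01 ± 0.30 (adjusted p = 0.979). IGFBP3 was lower at 7 dpci than in RFP DMSO by -1.37 ± 0.28 (edgeR adjusted p = 0.00266), a call kept in all 12 alternatives with adjusted p from 4.25e-05 to 0.0133. Against GFP-HRAS rapamycin it was lower by -0.82 ± 0.28 with an adjusted p of 0.0529, which ran from 0.0255 to 0.147 over alternatives. Against GFP-HRAS DMSO the difference was -0.15 (adjusted p = 0.719).

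Counted over the genes, 3 of the 5 tested were called lower in GFP-HRAS against RFP under DMSO (igfbp1b, IGF1R and IGFBP3), where 47.5% of all genes were called and 22.6% were called lower. With library totals 2 were called, without IGFBP3. The choice of genes used that comparison, so nothing is read from the count. For those 3 the libraries did not overlap, all GFP-HRAS libraries lying below, as for 30.5% of all genes. Under rapamycin the libraries of IGF1R lay wholly lower with GFP-HRAS, as for 16.2% of all genes, and those of IGF1 wholly higher, as for 16.8%. IGF1 did not pass the filter there and is outside the genes of that share. Its lowest GFP-HRAS library and its highest RFP library had 1 count each. At 7 dpci against RFP DMSO the same 3 were called lower, of 6 tested, with 36.4% of genes called and 17.7% called lower. These 2 comparisons share the RFP DMSO libraries, so nothing is read from the second count either. At 7 dpci the libraries of those 3 lay wholly below RFP DMSO, as for 28.1% of genes, and those of IGF1 wholly above, as for 29.6%. Against GFP-HRAS DMSO, edgeR called 0 of 6 at 7 dpci, 1 (igf2b) had an unadjusted p under 0.05 and DESeq2 called 0, with 28.8% of all genes called. The 3 ligand genes lay wholly above GFP-HRAS DMSO there, as did 25.3% of genes. Against GFP-HRAS rapamycin 1 of 6 was called (IGF1R, lower), with 18.5% of all genes called and 10.2% called lower. There IGF1R and IGFBP3 lay wholly below, as for 19.8% of genes, and igf2a wholly above, as for 20.2%.

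Rapamycin moved none of the genes past the threshold. In GFP-HRAS hearts edgeR called 0 of 5, against 12.1% of all genes; 3 had an unadjusted p under 0.05, and DESeq2 called 0. Those 3 were IGF1R at 0.67 ± 0.25 on the log2 scale (adjusted p = 0.0967), IGFBP3 at 0.67 ± 0.30 (0.158) and igfbp1b at 2.95 ± 1.31 (0.158). For IGF1R and IGFBP3 all 3 rapamycin libraries lay above all 3 DMSO libraries, as was so for 16.5% of all genes. For igfbp1b the libraries overlapped, and without GFP-HRAS DMSO replicate 1 the difference was 5.92 (adjusted p = 0.0385, range 0.0385 to 0.776). Cardiomyocyte markers were higher and leukocyte markers lower with rapamycin in these hearts, as given above. Endothelial and endocardial markers summed to 820 to 987 CPM with rapamycin and to 466 to 494 CPM with DMSO, with 4 of 6 called higher. The part of these cell classes in these differences was not tested. Scaled by library totals the values of IGF1R and IGFBP3 were 0.22 and 0.21.

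In RFP hearts the rapamycin differences were -0.72 ± 1.17 for igfbp1b, -0.07 for IGF1R, -0.53 for IGFBP3, -1.08 for igf2a and -0.73 for igf2b, with adjusted p of 0.994 or above. There edgeR called 0 of 16044 genes, 0% of those tested, whereas 787 had an unadjusted p under 0.05 and DESeq2 called 25. The difference between the rapamycin effects of both backgrounds was 3.67 ± 1.75 for igfbp1b (adjusted p = 0.367), 0.75 for IGF1R (0.355) and 1.20 ± 0.42 for IGFBP3 (0.255). That test called 0 of the 5 genes by edgeR and by DESeq2, with 1 (IGFBP3) at an unadjusted p under 0.05. Over all genes edgeR called 8 of 16044 (0.0499%), whereas DESeq2 called 490.

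The other binding protein genes did not move as one. The IGFBP1 gene, paralogue of igfbp1b, rose with GFP-HRAS. It read 2.61, 2.26 and 3.03 CPM in RFP DMSO and 6.26, 24.3 and 16.4 in GFP-HRAS DMSO. With rapamycin it read 5.88, 2.23 and 2.49 CPM in RFP and 25.5, 16.0 and 6.48 in GFP-HRAS. The GFP-HRAS libraries lay above the RFP libraries under either vehicle or drug, by 2.57 ± 0.59 on the log2 scale with DMSO (edgeR adjusted p = 0.00502) and by 2.18 ± 0.58 with rapamycin (0.0277). At 7 dpci IGFBP1 read 3.36, 5.12 and 6.67 CPM, a difference from RFP DMSO of 0.93 ± 0.56 that was not called (adjusted p = 0.206). It was lower than in GFP-HRAS DMSO by -1.63 ± 0.54 (adjusted p = 0.038) and than in GFP-HRAS rapamycin by -1.66 ± 0.54 (0.0482). The call under rapamycin held in 6 of 12 alternatives (adjusted p 0.00185 to 0.109), and the 7 dpci calls in 6 (0.0121 to 0.178) and 4 (0.015 to 0.183).

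The ratio of igfbp1b to IGFBP1 counts, which needs no scaling between libraries, was 32.5, 104 and 70.5 in RFP DMSO and 30.7, 43.5 and 18.9 in RFP rapamycin. It was 1.07, 0.0152 and 0.0146 in GFP-HRAS DMSO, 0.0489, 0.414 and 7.46 in GFP-HRAS rapamycin, and 2.49, 0.968 and 1.24 at 7 dpci. All RFP libraries lay above all others in this ratio. In each GFP-HRAS group the library with the most igfbp1b, replicate 1 with DMSO and replicate 3 with rapamycin, had the least IGFBP1, an ordering chosen after its values were seen. How reads shared by the paralogues were counted was not given in the sources used here.

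**Figure D2:**
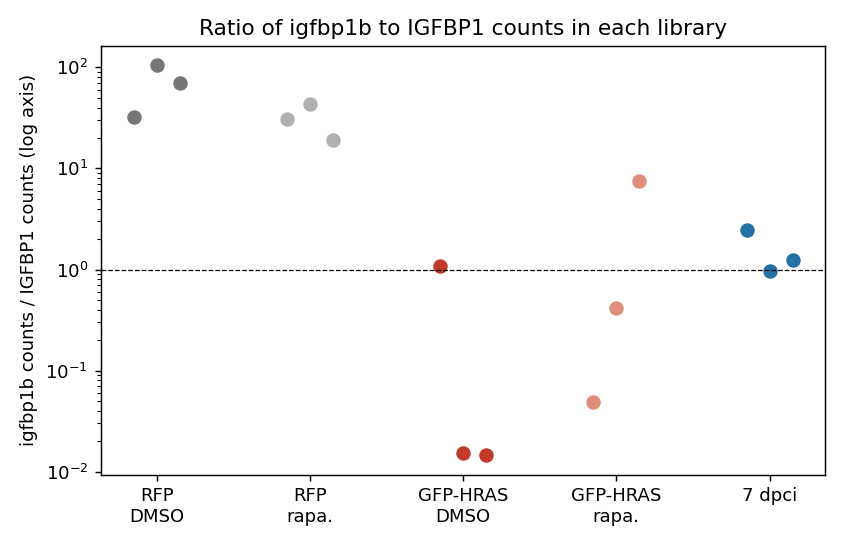
Ratio of igfbp1b counts to IGFBP1 counts in each library on a logarithmic axis, with a dashed line at equal counts. RFP libraries lay at 18.9 to 104 and 7 dpci libraries at 0.968 to 2.49, while GFP-HRAS libraries were spread from 0.0146 to 7.46.

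IGFBP5 (ENSDARG00000025348), a binding protein held in extracellular matrix, read 23.3, 14.1 and 14.2 CPM in RFP DMSO, 117, 87.2 and 183 in GFP-HRAS DMSO and 88.2, 51.0 and 59.1 at 7 dpci. With rapamycin it read 20.5, 17.1 and 25.5 CPM in RFP and 98.8, 210 and 187 in GFP-HRAS. Both RFP groups lay wholly below the other 3 groups. The rise with GFP-HRAS was 2.91 ± 0.37 under DMSO (edgeR adjusted p = 0.000343) and 2.97 ± 0.37 under rapamycin (0.00171), and the rise at 7 dpci over RFP DMSO was 1.94 ± 0.35 (0.00133).

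Similarly igfbp6b, whose mammalian counterpart prefers IGF2, read 20.6, 8.56 and 7.78 CPM in RFP DMSO, 307, 212 and 309 in GFP-HRAS DMSO and 147, 135 and 64.9 at 7 dpci. With rapamycin it read 40.9, 13.6 and 14.3 CPM in RFP and 360, 457 and 303 in GFP-HRAS. The groups formed 3 levels that did not overlap, with RFP lowest, 7 dpci between and GFP-HRAS highest. The rise with GFP-HRAS was 4.49 ± 0.53 under DMSO (edgeR adjusted p = 0.000282) and 4.02 ± 0.51 under rapamycin (0.00171), and 7 dpci was 3.24 ± 0.50 above RFP DMSO (0.000604).

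Smooth muscle and pericyte markers summed to 179 to 293 CPM in RFP, 665 to 3240 CPM in GFP-HRAS and 591 to 675 CPM at 7 dpci. They were thus lowest in RFP, as were IGFBP5 and igfbp6b. Within GFP-HRAS DMSO the highest sum (3240 CPM, replicate 2) went with the lowest IGFBP5 (87.2) and igfbp6b (212). In GFP-HRAS rapamycin the highest sum (3080 CPM, replicate 1) went with the lowest IGFBP5 (98.8). The lowest sum there (665 CPM, replicate 3) went with the lowest igfbp6b (303). In the other groups the highest sum went with the highest IGFBP5. These were RFP DMSO replicate 1 (233 CPM, IGFBP5 23.3), RFP rapamycin replicate 3 (293 CPM, 25.5) and 7 dpci replicate 1 (675 CPM, 88.2). The same libraries had the highest igfbp6b in RFP DMSO (20.6) and at 7 dpci (147), but not in RFP rapamycin (14.3, against 40.9 in replicate 1). All these orderings rest on 3 libraries a group and were picked after their values were seen. Fibroblast and epicardial markers were 199 to 259 CPM in RFP, 224 to 1980 CPM in GFP-HRAS and 3320 to 3490 CPM at 7 dpci. The part of either cell class in these differences was not tested.

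IGFBP7, a secreted protein with low affinity for IGF, went the other way, from 233, 211 and 197 CPM in RFP DMSO to 60.5, 57.6 and 74.1 at 7 dpci. That fall was -1.74 ± 0.29 on the log2 scale (edgeR adjusted p = 0.00095). The GFP-HRAS DMSO libraries read 91.9, 164 and 149 CPM, all below RFP DMSO, with a difference of -0.66 ± 0.31 that missed the threshold (adjusted p = 0.0994). Endothelial and endocardial markers also summed lower there, at 466 to 494 CPM in GFP-HRAS DMSO and 855 to 977 CPM at 7 dpci against 1470 to 1680 CPM in RFP DMSO, and their part was not tested. With rapamycin IGFBP7 read 148 to 258 CPM in RFP and 67.9 to 147 CPM in GFP-HRAS. IGFBP2 (ENSDARG00000031422) was at most 0.533 CPM in all 12 transgenic libraries and 1.77, 2.05 and 2.19 CPM at 7 dpci. Its rise over RFP DMSO was 2.93 ± 0.52 (adjusted p = 0.00123).

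**Figure D3:**
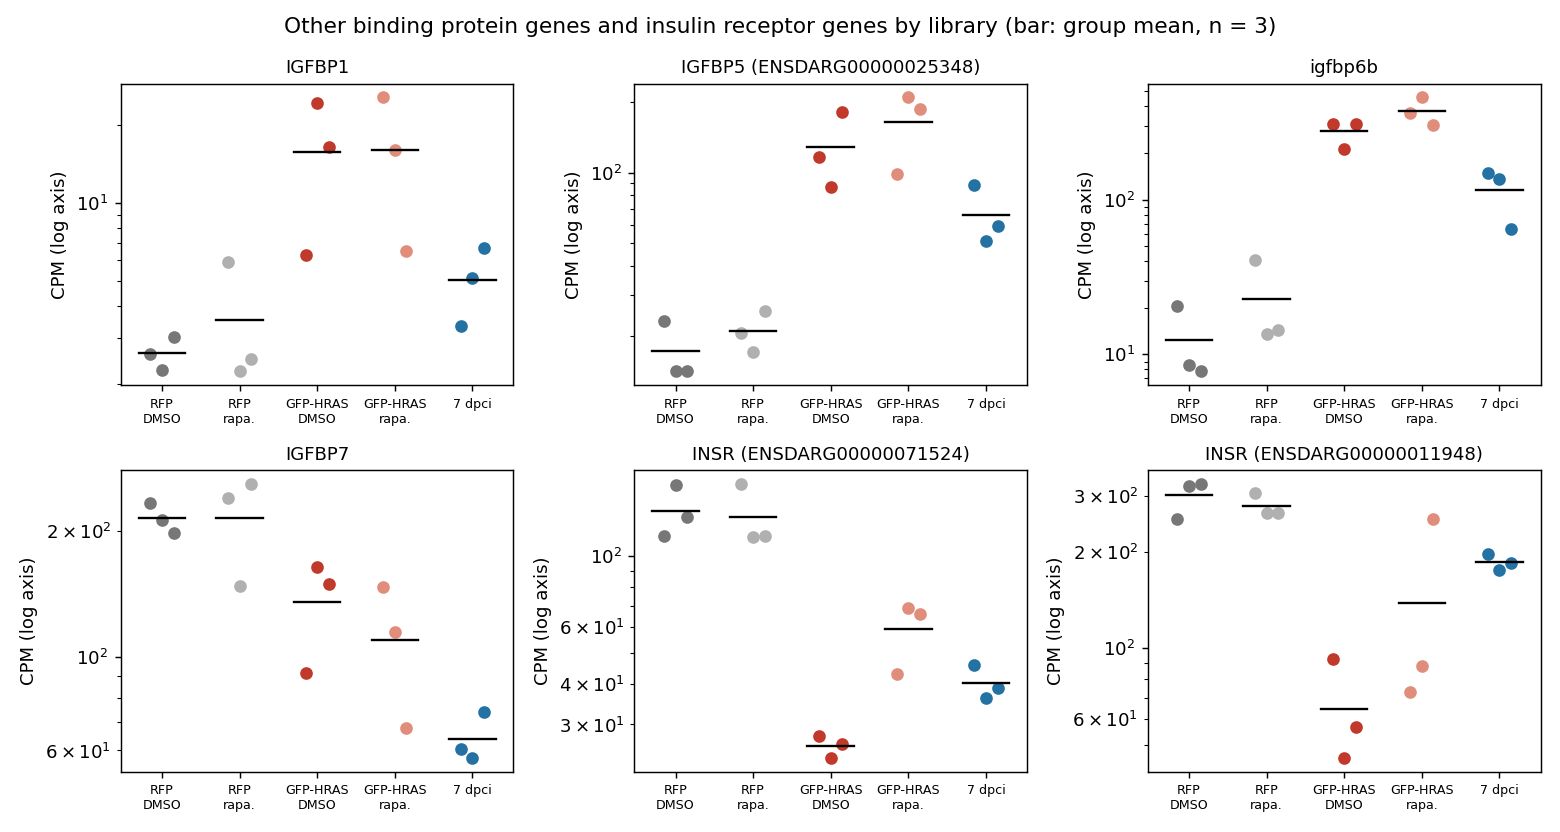
CPM on logarithmic axes of 4 further binding protein genes and both insulin receptor genes in each library, with the group mean as a bar and 3 libraries a group. IGFBP5 and igfbp6b were lowest in the RFP groups, while IGFBP7 was lowest at 7 dpci apart from 1 overlapping GFP-HRAS rapamycin library, and the insulin receptor genes had their lowest means in GFP-HRAS DMSO.

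Both insulin receptor genes, whose proteins are the closest relatives of the IGF1 receptor, were lower with GFP-HRAS under DMSO. INSR (ENSDARG00000071524) read 115, 166 and 132 CPM in RFP DMSO, 27.7, 23.6 and 26.1 in GFP-HRAS DMSO, 43.1, 68.7 and 66.0 in GFP-HRAS rapamycin and 45.9, 36.2 and 38.8 at 7 dpci, with 114 to 167 CPM in RFP rapamycin. All libraries of the latter 3 groups lay below all RFP DMSO libraries, and GFP-HRAS DMSO lay below the other two. It fell with GFP-HRAS by a log2 value of -2.41 ± 0.24 under DMSO (edgeR adjusted p = 0.000131) and -1.16 ± 0.23 under rapamycin (0.00929), and was -1.77 ± 0.22 at 7 dpci against RFP DMSO (0.000214). It was the receptor gene that rose with rapamycin in GFP-HRAS hearts, by 1.20 ± 0.23 (adjusted p = 0.0118, range over 12 alternatives 8.61e-05 to 0.0499).

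The other INSR gene (ENSDARG00000011948) read 254, 322 and 326 CPM in RFP DMSO, 92.5, 45.4 and 56.7 in GFP-HRAS DMSO and 197, 176 and 184 at 7 dpci. It read 264 to 304 CPM in RFP rapamycin and 73.0, 87.8 and 254 CPM in GFP-HRAS rapamycin, with the high value again in replicate 3. It fell by -2.21 ± 0.43 with GFP-HRAS under DMSO (adjusted p = 0.00218) and was 1.52 ± 0.39 higher at 7 dpci than in GFP-HRAS DMSO (0.0118), groups whose libraries did not overlap. IGF2R, which takes up IGF2 for degradation in mammals, differed by -0.01 ± 0.25 between GFP-HRAS and RFP under DMSO (adjusted p = 0.987) and was lower at 7 dpci than in RFP DMSO by -0.80 ± 0.24 (0.0205), a call kept in 8 of 12 alternatives. The second IGF1R gene (ENSDARG00000027423) was at most 1.04 CPM in any library.

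**Figure D4:**
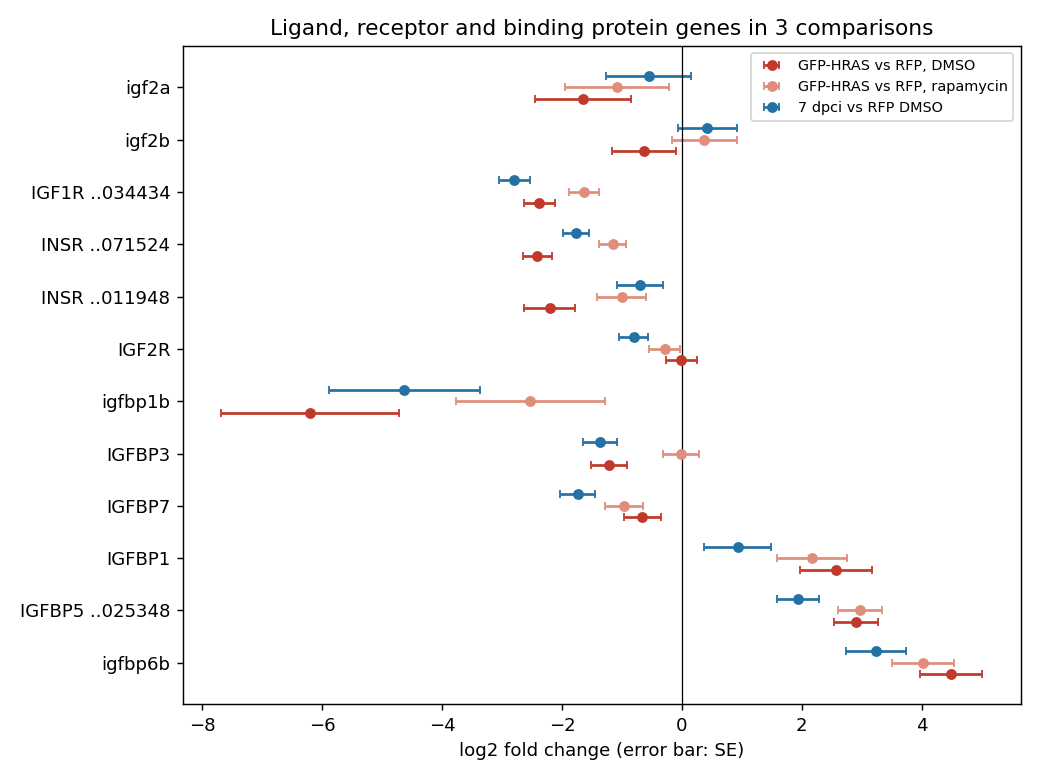
Log2 fold change with its SE for ligand, receptor and binding protein genes in GFP-HRAS against RFP under DMSO, the same under rapamycin, and 7 dpci against RFP DMSO. IGF1R and INSR (ENSDARG00000071524) were below 0, and IGFBP5 and igfbp6b above 0, in all 3, whereas IGFBP3 was -1.22 and -1.37 in the DMSO and 7 dpci comparisons and -0.01 under rapamycin.

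A list of 94 pathway genes, the 6 included, was counted by role, from ligands, binding proteins and receptors to genes downstream of the receptor. It was written with earlier results known. In GFP-HRAS against RFP under DMSO, 11 of the 72 tested were called higher and 34 lower, with a median log2 fold change of -0.65. Without the 6 genes, in part chosen by this comparison, 11 of 67 were higher and 31 lower, with a median of -0.60. Over all genes the median was 0.02, with 24.9% called higher and 22.6% lower. With library totals as the scaling the split was 15 higher and 22 lower and the median was -0.18. Over all genes that scaling gave 6084 higher and 1812 lower, with a median of 0.49. Of 11 adaptor genes, which link receptors to signalling, 2 were called higher and 6 lower, led by IRS2 (ENSDARG00000037099), an insulin receptor substrate, at -3.01 ± 0.67 (edgeR adjusted p = 0.00415). Of 25 genes of the PI3K, AKT and FOXO core 4 were called higher and 11 lower, with foxo6b, a FOXO transcription factor gene, highest at 46 counts against 2, a ratio of 16 after scaling (95% counting interval 4.2 to 136). Of 15 FOXO-responsive genes 1 was called higher and 10 lower, led by trim63a, a muscle ubiquitin ligase, at -4.04 ± 0.74 (edgeR adjusted p = 0.00155). With library totals the core gave 7 higher and 4 lower, and its median log2 fold change turned from -0.23 to 0.23. That scaling gave 2 higher and 6 lower adaptor genes, and 1 higher and 7 lower FOXO-responsive genes. PAPPA (ENSDARG00000059858), a protease gene of the family that frees IGF from its binding proteins, was 0.914, 0.734 and 0.938 CPM in RFP DMSO and 0.0457, 0.123 and 0.0797 in GFP-HRAS DMSO, a fall of -3.26 ± 0.79.

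Under rapamycin, GFP-HRAS against RFP gave 6 higher and 8 lower calls among the 72, which were 8 and 22 of 73 without GFP-HRAS rapamycin replicate 3. Of all genes 18.1% were called, and without that library 2595 were called higher and 2269 lower of 16645. Among those of the list called lower were irs4a, another insulin receptor substrate, at -1.69 (adjusted p = 0.0302) and FOXO1 (ENSDARG00000061549) at -1.63 (0.0433). The called stanniocalcin gene, STC1 (ENSDARG00000003303), whose mammalian protein inhibits PAPPA, was higher by 2.69 (0.0163), and bcl6ab, a transcriptional repressor gene, by 1.76 (0.0105). For rapamycin in GFP-HRAS hearts the list gave 6 higher and 2 lower, or 3 and 10 with library totals. Over all genes 12.1% were called, with 936 higher and 1011 lower, or 254 and 3218 with library totals. PDK4, a kinase that shuts pyruvate out of oxidation, was 1.48 higher (adjusted p = 0.0275) and GRB14, an adaptor that inhibits the insulin receptor, 1.70 higher (0.0102). PIK3CD, the PI3K catalytic subunit best known from leukocytes, was lower by -2.67 ± 0.33 (0.00351), in the comparison in which leukocyte markers were lower as well.

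At 7 dpci against RFP DMSO, 9 of 75 list genes were called higher and 30 lower, with a median of -0.52 beside 0.02 over all genes. Of all genes 36.4% were called, with 3079 higher and 2905 lower. With library totals the list gave 12 higher and 23 lower, and all genes gave 3517 and 2127. The adaptor IRS2 (ENSDARG00000075282) was lower by -2.45 ± 0.65 (adjusted p = 0.0104), and the FOXO-responsive glucose-6-phosphatase gene G6PC1 (ENSDARG00000014967) by -2.94. The latter read 105, 165 and 147 CPM in RFP DMSO and 11.4, 18.7 and 24.3 at 7 dpci. Against GFP-HRAS DMSO 28.8% of all genes were called, with 2192 higher and 2541 lower, or 1290 and 4617 with library totals. Of the list, 16 genes were called higher and 13 lower, or 9 and 20 with library totals. Those higher included KLF15, a FOXO-responsive transcription factor gene, by 2.20, GRB10 (ENSDARG00000002013), an adaptor, by 1.51 and igf2bp1, an IGF2 mRNA-binding protein gene, by 0.99. Those lower included STC1 (ENSDARG00000003303) by -1.96 ± 0.56 (adjusted p = 0.0192) and PIK3CD by -1.64 ± 0.29 (0.00184). Against GFP-HRAS rapamycin 3 were called higher and 11 lower, beside 18.5% of all genes called. The PI3K regulatory subunit gene pik3r2 was higher by 1.45, while STC1 (ENSDARG00000003303) was lower by -2.02 ± 0.56 (adjusted p = 0.0247) and the adaptor gene GRB10 (ENSDARG00000035308) by -0.99 ± 0.29 (0.0324), calls kept in 7 and 5 of 12 alternatives.

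By Pearson correlation of log2 CPM over the 15 libraries, the genes most like igfbp1b were SOCS2 (r = 0.994), an inhibitor of cytokine and growth hormone receptor signalling, KLHL38 (0.983) and hhla2a.1 (0.983). These points share libraries and the groups' differences in composition, and the r values are descriptions. SOCS2 read 49.7, 89.2 and 62.7 CPM in RFP DMSO, 77.8, 57.4 and 29.1 in RFP rapamycin, 13.1, 4.51 and 3.31 in GFP-HRAS DMSO, 7.28, 12.7 and 36.9 in GFP-HRAS rapamycin and 12.2 to 18.1 at 7 dpci. Its order of libraries within both GFP-HRAS groups was that of igfbp1b, with replicate 1 highest under DMSO and replicate 3 under rapamycin. SOCS2 was picked by its correlation over these same libraries, which makes a like order probable. For IGF1R the most similar genes were si:ch73-103b11.2 (r = 0.978), TMF1 (0.973) and si:ch1073-416d2.4 (0.972). IGFBP3 was most like fam120b (0.926), SYNGR1 (0.907) and PDPK1 (0.889), the kinase that activates AKT. The ligands had lower values: IGF1 reached 0.912 with si:dkey-253d23.11, igf2a 0.825 with uckl1b and igf2b 0.786 with GULP1.

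**Figure D5:**
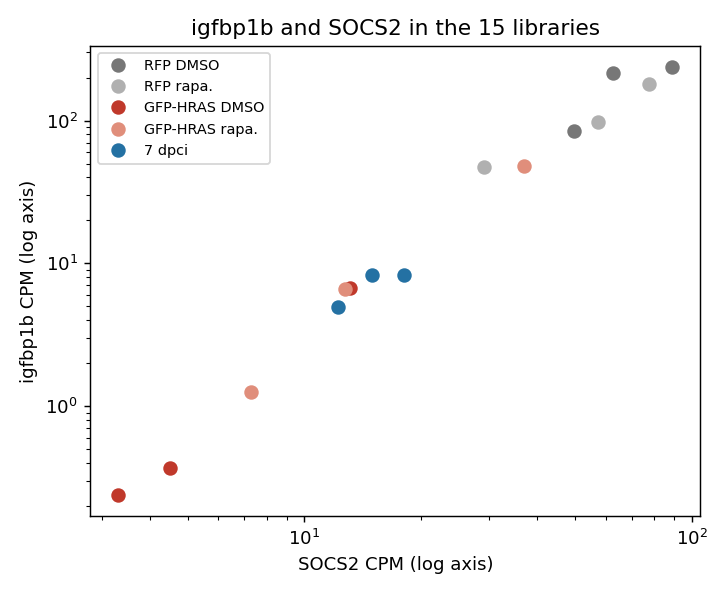
CPM of igfbp1b against CPM of SOCS2 in the 15 libraries, both axes logarithmic and colours marking the 5 groups. The libraries ran from GFP-HRAS DMSO replicate 3 (0.239 CPM of igfbp1b, 3.31 CPM of SOCS2) to RFP DMSO replicate 2 (236 and 89.2 CPM), with 7 dpci between.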

How the data were processed

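Ventricle RNA was sequenced from mRNA libraries with unique molecular identifiers (CORALL kit, per the labels' protocols). The authors deposited raw counts per gene in 2 tables. The submitters' processing notes name HISAT2 2.1.0, UMI-tools 1.1.1, featureCounts 1.6.0 and build GRCz11. Annotation release and strand setting were not given in the sources used here. Of 18 labelled samples, 3 uninjured ones were not analysed here, and columns named UR were read as UAS:RFP. A gene name table paired 29201 of 32520 IDs with symbols.

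The deposited counts were tested with edgeR 4.0.16 (R 4.3.3, limma 3.58.1): TMM scaling, the default expression filter with a minimum count of 10, quasi-likelihood F-tests and Benjamini-Hochberg adjustment over all genes tested, called at 0.05. Transgenic comparisons used 12 libraries (16044 genes), and those with 7 dpci all 15 (16421 genes). Adjusted p are from this test unless an alternative is named beside them. SE is the fold change divided by the root of F. CPM carry TMM factors over 15 libraries, and correlations used a prior count of 2. Counting intervals were exact at 95% and cover counting error only. Levels were not compared between genes, apart from the count ratio of igfbp1b to IGFBP1, which is not corrected for length. Tested on simulated data with the same spread for every gene, the fit recovered most of the larger changes and missed many of the smaller ones. An uncalled gene may therefore have changed. Recovery was not simulated for genes as variable between libraries as igfbp1b.

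The 6 genes, the pathway list and the tests were chosen with earlier results of these data known. Besides the 6, named genes were the called gene with the largest change in each role class of a comparison, every called ligand, receptor or binding protein gene, and the 3 genes most correlated with each of the 6. Alternatives were DESeq2 1.42.0, its size factors, library totals, no filter, the compared groups alone, a replicate block and each library left out. No libraries were near-duplicates. Libraries sharing a replicate number did not deviate together, so no pairing was used. Transgene reads were not checked.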

Additional observations from a re-analysis of the deposited data

Results flagged for a closer look

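The rapamycin effect on PIK3CD differed between the GFP-HRAS and RFP backgrounds by -3.19 ± 0.46 on the log2 scale (edgeR interaction term, adjusted p = 0.0485). It read 24.2, 13.7 and 9.37 CPM in GFP-HRAS DMSO and 2.84, 2.60 and 1.96 in GFP-HRAS rapamycin, without overlap, and 1.70 to 2.79 CPM in the RFP groups. Over 17 alternatives the difference lay between -3.49 and -2.74 and the adjusted p between 3.92e-06 and 0.167, and 8 of the 17 kept the call. Leukocyte markers, summing to 2830 to 4250 CPM in GFP-HRAS DMSO and 139 to 387 CPM in GFP-HRAS rapamycin, moved with it, and their part was not tested.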

How the results depend on the processing

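Counts of called genes moved past 1.5 times in these cases. For 7 dpci against GFP-HRAS DMSO the 6 genes gave 1 call, in place of 0, with library totals and with only the compared groups. Against GFP-HRAS rapamycin they gave 2, in place of 1, with DESeq2, with its size factors and with only the compared groups. Of the pathway list, GFP-HRAS against RFP under rapamycin gave 14 calls, 23 with DESeq2 and 4 with only the compared groups. Rapamycin in GFP-HRAS gave 8, 14 with DESeq2, 13 with library totals and 4 with only the compared groups. The interaction gave 1, and 2 with DESeq2. DESeq2 also raised the calls over all genes, so its higher counts were not particular to the list. GFP-HRAS against RFP under rapamycin rose from 2909 to 4133. Rapamycin in GFP-HRAS rose from 1947 to 3088, and the interaction from 8 to 490. Library totals moved all genes for rapamycin in GFP-HRAS from 936 higher and 1011 lower to 254 and 3218. No all-gene count is set beside the calls with only the compared groups. The cause of these shifts was not tested.

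With each library left out in turn, calls among the 6 genes ran from 0 to 1 (7 dpci against GFP-HRAS DMSO), 0 to 2 (GFP-HRAS rapamycin) and 2 to 3 (RFP DMSO). They ran from 3 to 4 for GFP-HRAS against RFP under DMSO, 1 to 2 under rapamycin and 0 to 1 for rapamycin in GFP-HRAS. For the pathway list the ranges were 9 to 29, 3 to 19 and 24 to 37 for the 7 dpci comparisons, 34 to 43 and 5 to 30 for GFP-HRAS against RFP, 3 to 12 for rapamycin in GFP-HRAS and 0 to 1 for the interaction.

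Signs turned for the following uncalled log2 values. IGF1 at 7 dpci against GFP-HRAS rapamycin was -8.09e-05 with DESeq2, -0.0077 with its size factors, -0.00060 with no filter, -0.037 with the replicate block, and from -0.49 to 0.39 with libraries left out. IGF1R under rapamycin in RFP ran from -0.29 to 0.097 with libraries left out. Without RFP DMSO replicate 2, igf2a was 0.77 at 7 dpci against RFP DMSO, 0.25 for rapamycin in RFP and -0.75 for the interaction, the other ends of the ranges being -1.04, -1.57 and 1.06. For igf2b in GFP-HRAS rapamycin the ranges were -0.38 to 1.09 against RFP and -0.48 to 0.63 against DMSO, the latter -0.12 with library totals. The negative ends came without replicate 1 of that group. At 7 dpci against GFP-HRAS rapamycin, igfbp1b ran from -1.91 to 0.90, the latter without GFP-HRAS rapamycin replicate 3. IGFBP3 in GFP-HRAS against RFP under rapamycin was 0.0042 with DESeq2, 0.0013 with its size factors, 0.076 with library totals, 0.012 with only the compared groups, and from -0.21 to 0.18 with libraries left out.

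The replicate block gave 3 calls among the 6 genes in GFP-HRAS against RFP under DMSO and 42 of the pathway list. Same-numbered libraries had correlations of -0.34 to 0.17 over 18 pairs, 2 of them over 0.1. Differently numbered libraries of different groups had -0.353 to 0.349 over 36 pairs, 10 of them over 0.1. Of single-gene values under other settings, 994 kept direction and side of the threshold, 126 lost a call and 10 gained one. Over 12 alternatives the call of FOXO1 in GFP-HRAS against RFP under rapamycin was kept in 5, irs4a in 6, STC1 in 7 and bcl6ab in 10, PDK4 for rapamycin in GFP-HRAS in 7, and at 7 dpci G6PC1 in 7, igf2bp1 in 8, KLF15 in 9 and pik3r2 in 6. Over all genes, GFP-HRAS against RFP under DMSO gave 3991 higher and 3630 lower calls, and 6084 and 1812 with library totals. Low counts of the genes themselves limit IGF1 and igf2a, each with at most 73 counts in a group.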

Other observations

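Several further genes of the axis were at or near 0. The insulin genes ins and insb had 1 and 6 counts in all 15 libraries, all 6 of insb in GFP-HRAS DMSO. For igf3, a ligand gene of the fish gonad, no group exceeded 7 counts in total. The second IGFBP2 gene (ENSDARG00000052470) averaged 0.522 CPM at 7 dpci and 0.0204 to 0.143 CPM in the transgenic groups. For IGFALS, the acid-labile subunit that carries IGF with IGFBP3 in blood, no group mean exceeded 0.0816 CPM.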
